A study of Mus musculus with 8 samples.

Results

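The CXC chemokines examined were 7 genes chosen by symbol, Cxcl1, Cxcl2, Cxcl3, Cxcl9, Cxcl10, Cxcl11 and Cxcl16, and 6 of them had a row among the 21080 gene symbols of the deposited tables. Cxcl11, annotated as a polymorphic pseudogene in GENCODE M21, was not analysed here. RNA-seq was carried out on bone marrow-derived macrophages (BMDMs, macrophages grown from mouse bone marrow with the growth factor M-CSF) in 4 groups of 2 samples. The Nudt21-cKO groups came from Nudt21 fl/fl LysM-Cre mice, in which Cre expressed from the lysozyme M locus deletes Nudt21 in myeloid cells, and the WT groups came from sex-matched LysM-Cre littermates, so that Cre was present in every group. All mice were of the C57BL/6 background, and BMDMs of 2 mice were pooled for each sample. One group of each genotype was left without stimulation (0 h), and the other was primed with IFNγ overnight and given LPS for 4 h. The treatment field of the labels names the stimulation for the 0 h samples as well, and they were taken as untreated from their titles.

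Chemokines are small secreted proteins that draw leukocytes along a gradient through G protein-coupled receptors. The ELR-containing CXC ligands Cxcl1, Cxcl2 and Cxcl3 act on Cxcr2 and recruit neutrophils, and macrophages make them through NF-κB signalling downstream of LPS. The interferon-induced ligands Cxcl9, Cxcl10 and Cxcl11 act on Cxcr3 of activated T cells and NK cells. Cxcl16 is made as a transmembrane protein that binds Cxcr6, takes up oxidized lipoprotein, and is released from the cell surface by the protease Adam10. Nudt21 is a subunit of cleavage factor Im, which binds UGUA motifs near polyadenylation sites.

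The deposited value was read coverage averaged over the bases of a gene, a level per length on a scale not normalized between samples. Summed over symbols it ranged from 14950347 to 15827594 in the WT samples and from 16650103 to 17954882 in the cKO samples. Nudt21 coverage at 0 h was 718 and 641 for WT against 158 and 172 for cKO, while at 4 h it was 547 and 575 against 142 and 115, with adjusted p-values of 0.0462 and 0.0445 from limma. Each of the 7 macrophage markers examined was present in every group, with summed coverage from 50581 to 130748, and Lyz2, the gene of lysozyme M, was among the lower ones at 455 to 1375. Neutrophil marker coverage summed to 3272 and 4622 in WT against 5804 and 6093 in cKO after stimulation, and to 5967 and 7781 in WT against 7340 and 9375 in cKO before it. The granule genes Ngp, Ltf and Camp carried most of it, while Ly6g, the defining surface marker, was at 7.37 or below in every sample. The T and NK cell list summed to 12.9 or less and the B cell list to 143 or less in every sample. The 4 fibroblast markers reached a sum of 206 and the 3 endothelial markers 202. In bulk RNA, fewer cells of a type and less RNA per cell cannot be told apart.

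Of the 6 genes, 5 lie in 2 neighbouring groups on chromosome 5 of GRCm38. Cxcl3 (chr5:90786103-90789600), Cxcl1 (chr5:90891241-90893115) and Cxcl2 (chr5:90903871-90905938) are on the plus strand, and Cxcl9 (chr5:92321347-92328079) and Cxcl10 (chr5:92346638-92348889) are on the minus strand. Cxcl16 is at chr11:70453983-70459984 on the minus strand. Promoter windows of 250 bases before to 50 after the start were taken from RefSeq on GRCm38.p6 and were found for 5 members, Cxcl1, Cxcl2, Cxcl3, Cxcl9 and Cxcl10. On either strand, the letters GGG and TTCC separated by any 3 bases, the form of an NF-κB site, were in the windows of Cxcl1, Cxcl2, Cxcl3 and Cxcl10 and in 5.56% of the 32851 windows of all genes. The letters GAAA repeated after any 2 bases, the form of an interferon-stimulated response element, were in that of Cxcl10 and in 3.44% of all windows. The letters TTCNNNGAA, the form of a GAS element, were in none of the 5 and in 8.30% of all windows. These stretches are shown because the same 10 letters precede the 3 neutrophil-attracting genes, with the match in capitals and read along the gene's own strand.
Cxcl1, chr5:90891164-90891193, plus strand, match 71 bases before the start: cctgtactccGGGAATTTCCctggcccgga
Cxcl2, chr5:90903792-90903821, plus strand, match 97 bases before the start: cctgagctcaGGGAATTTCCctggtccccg
Cxcl3, chr5:90786018-90786047, plus strand, match 73 bases before the start: gagctgcgggGGGAATTTCCccagcccggg
Cxcl10, chr5:92348974-92349003, minus strand, match 104 bases before the start: tcggtttacaGGGGACTTCCctcgggttgc
Cxcl10, chr5:92349029-92349058, minus strand, match 159 bases before the start: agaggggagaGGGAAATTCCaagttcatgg
Cxcl10, response element form, chr5:92349083-92349112, minus strand, match 213 bases before the start: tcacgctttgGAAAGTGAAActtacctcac

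The run GGGAATTTCC of Cxcl1, Cxcl2 and Cxcl3 also matched on the opposite strand, shifted by 1 base. Further NF-κB-form matches lay 89 bases before the start of Cxcl1, 78 before that of Cxcl2 and 50 before that of Cxcl3, and none of the printed matches of Cxcl10 overlapped another. A match describes letters only and does not show that a factor bound there.

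The 3′UTRs were compared because AU-rich elements are known to shorten the life of chemokine mRNAs and UGUA is the letter string that Nudt21 recognizes. In the longest annotated 3′UTR of GENCODE M21, the AU-rich pentamer ATTTA (as DNA, gene strand, overlaps counted) occurred 7 times in the 592 bases of Cxcl1, 11 times in the 734 bases of Cxcl2 and 5 times in the 645 bases of Cxcl3. Those are 11.8, 14.99 and 7.75 per kilobase, and 0.516%, 0.230% and 2.26% of 17824 genes with a 3′UTR of at least 100 bases had as high a density. Cxcl9, Cxcl10 and Cxcl16 had 3, 2 and 2 copies, at 1.22, 2.74 and 1.41 per kilobase, where the median of all genes was 1.27. TGTA, the DNA letters of UGUA, occurred 5, 8, 3, 9, 16 and 17 times in Cxcl1, Cxcl2, Cxcl3, Cxcl9, Cxcl10 and Cxcl16, against a median of 4 over 19278 genes. Per kilobase these are 8.45, 10.9, 4.65, 3.67, 21.9 and 11.96, so that Cxcl3 and Cxcl9 were below the median of 5.04 and the other 4 above it. The densest 30 bases of the neutrophil-attracting genes are shown with each ATTTA in capitals.
Cxcl1, chr5:90892606-90892635, plus strand: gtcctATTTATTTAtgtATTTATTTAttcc
Cxcl2, chr5:90905327-90905356, plus strand: tATTTATTTAtctatgtATTTATTTATTTA
Cxcl3, chr5:90787636-90787665, plus strand: gcatcttATTTAatgtttATTTAatatcaa

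**Figure D1:**
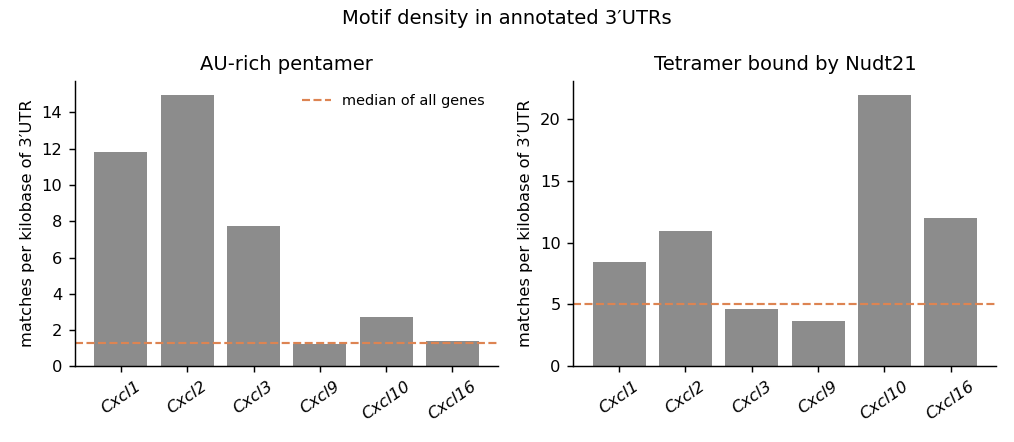
Matches per kilobase of annotated 3′UTR for the AU-rich pentamer (left) and for the tetramer bound by Nudt21 (right) in 6 CXC chemokines, with the median of all genes as a dashed line. Cxcl1, Cxcl2 and Cxcl3 stand above the other 3 genes in the left panel, and Cxcl10 has the highest bar in the right panel.

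The first comparison asked how the stimulated macrophages of the genotypes differed. At 4 h after LPS, Cxcl1 and Cxcl3 were several-fold higher in Nudt21-cKO than in WT BMDMs, and Cxcl16 was moderately higher. Cxcl9 and Cxcl10, the T cell ligands, had overlapping values in the genotypes. The calling rule was that of the study's methods, a fold above 1.5 together with an unadjusted p under 0.05, here from limma. By that rule 3 of the 6 members were called higher, Cxcl1, Cxcl3 and Cxcl16, and 0 lower, where 20.8% of the 14950 genes tested were called higher and 4.17% lower (25.0% in either direction). With Benjamini-Hochberg adjustment over all genes 0 of the 6 passed in limma, against 3.86% of all genes. The median log2 fold change was 0.70 over the 6 members and 0.31 over all genes. With the median of each sample set equal (median-centring), 1552 genes were called higher and 1480 lower, in place of 3112 and 624.

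Cxcl1, known as KC, is a principal neutrophil attractant of the mouse. Its coverage at 4 h was 2337 and 1342 in the WT samples against 15539 and 18575 in the cKO samples, which is 1840 ± 703 (SD, n = 2) against 17057 ± 2146 (SD, n = 2). Both cKO samples lay far above both WT samples, and the WT samples differed from each other more, relative to their mean, than the cKO samples did. The ratio of means was 9.27. The log2 fold change was 3.26 (standard error 0.35), with an adjusted p of 0.0529 from limma, and 2.43% of genes had as high a log2 fold change. The call was kept with each of the 4 samples left out in turn, at log2 fold changes of 2.86 to 3.66. It ended (adjusted p = 0.276 from limma) when the spread was taken over all 8 samples, in which the WT sample 2 at 0 h was listed at 0.

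Cxcl3, the third of the neutrophil ligands, had coverage of 1148 and 770 in WT against 5404 and 6833 in cKO at 4 h. Again the groups were far apart, with a ratio of means of 6.38. The log2 fold change was 2.69 with a standard error of 0.29 (adjusted p = 0.0529 from limma), and it stayed between 2.40 and 2.98 with each sample left out, called each time. Cxcl3 shares its longest exact run of 110 bases with Cxcl2, and 6.31% of its 50-base stretches occur in Cxcl2, whose coverage at 4 h was many times higher. How far reads of Cxcl2 entered the Cxcl3 values was not tested. Cxcl1 shared no 50-base stretch with another gene.

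Cxcl2, also called MIP-2, was the most abundant of the 3 at 4 h. Its coverage was 69065 and 42276 in WT against 85103 and 101436 in cKO. Both cKO samples were above both WT samples, which 51.1% of all genes tested at 4 h also showed (14.9% had both cKO samples below). The ratio of means was 1.68 and the log2 fold change was 0.78 with a standard error of 0.32 (adjusted p = 0.206 from limma), so Cxcl2 was not called. Without the WT sample 1, the higher of the WT pair, it was called at a log2 fold change of 1.14, and without the WT sample 2 the value was 0.43, with no call.

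Because Cxcl1, Cxcl2 and Cxcl3 were measured in the same libraries, their ratios are not altered by multiplying a sample by a factor, as median-centring or equal total coverage does. Cxcl1 coverage was 3.38% and 3.18% of that of Cxcl2 in the WT samples at 4 h, against 18.3% in each cKO sample. Cxcl3 coverage was 1.66% and 1.82% of that of Cxcl2 in WT and 6.35% and 6.74% in cKO. Relative to Cxcl2, Cxcl1 was thus 5.58-fold and Cxcl3 3.76-fold higher in cKO, with no overlap between the genotypes.

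**Figure D2:**
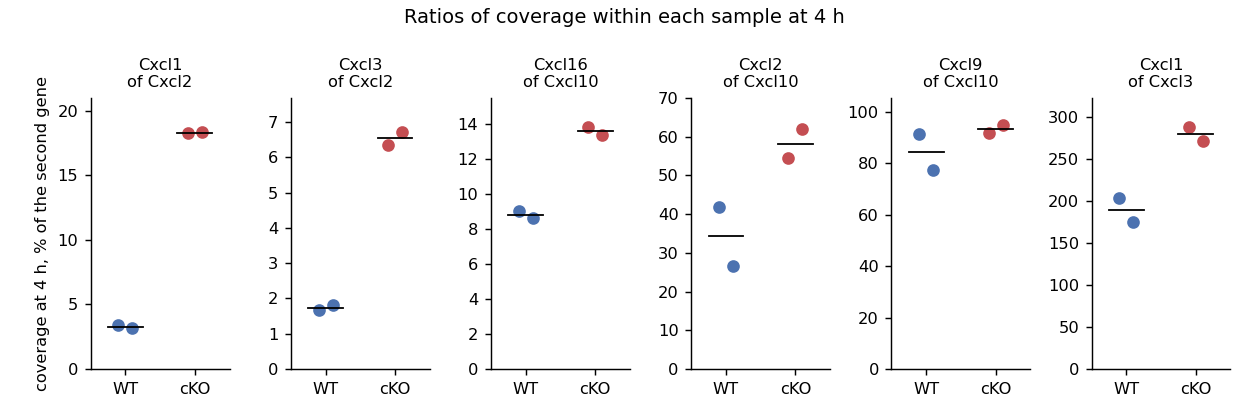
Coverage of one chemokine as a percentage of another within each sample at 4 h, with WT samples in blue, cKO samples in red and the mean as a line, on axes that start at 0. The cKO samples sit near 18.3% and the WT samples near 3.3% for Cxcl1 relative to Cxcl2, while the Cxcl9 to Cxcl10 percentages lie between 77.5% and 95.0% in both genotypes.

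The summed neutrophil markers at 4 h, given above, did not overlap between the genotypes and were higher in cKO, with Camp called higher. Ngp carried most of this sum, at 2217 and 3223 in WT against 4126 and 4317 in cKO, and was not called. Elane, at 97.0 and 103 in WT against 90.2 and 90.9 in cKO, went the other way and was not called. So did Mpo, at 82.0 and 120 against 76.7 and 76.4. Retnlg, another marker of the list, was at 1.74 and 5.28 in WT and was listed at 0 in cKO at that time. Coverage summed over all symbols at 4 h was also without overlap, at 15552049 and 14950347 in WT against 17360205 and 17954882 in cKO. Of all genes tested at 4 h, 51.1% had both cKO samples above both WT samples. The macrophage markers summed to 50581 and 55388 in WT against 61847 and 64858 in cKO, without overlap. Of the 7 markers, Cd68 differed by the most coverage, at 12362 and 13101 in WT against 24827 and 28817 in cKO. Lyz2 was called higher as well and Mertk had a log2 fold change of 0.52, below the fold threshold, while Adgre1, Csf1r, Itgam and Fcgr1 had log2 fold changes of -0.46 to -0.04 and were not called, and the median of the list was -0.04 against 0.31 over all genes. The endothelial markers summed to 64.9 and 93.8 in WT against 129 and 146 in cKO, with Kdr called higher and Pecam1 lower. The part of these shifts in the values of Cxcl1, Cxcl2, Cxcl3 and Cxcl16 was not tested.

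Cxcl9, also called MIG, had coverage of 150417 and 122785 in WT against 143415 and 155598 in cKO at 4 h. The groups overlapped, and the log2 fold change was 0.14 with a standard error of 0.16 (adjusted p = 0.585 from limma). Its sign changed with scaling, to -0.20 with median-centring and -0.0750 with equal total coverage. Cxcl10, also called IP-10, had coverage of 164704 and 158532 in WT against 156101 and 163826 in cKO. These groups overlapped as well, with a log2 fold change of -0.01 (standard error 0.10, adjusted p = 0.932 from limma) on the deposited scale and -0.35 with median-centring. Cxcl10 overlaps Art3 on the opposite strand, and Art3 was at 26.2 or below in every sample. These were the 2 most abundant members at 4 h. Cxcl10 ranked from 7 to 11 and Cxcl9 from 11 to 13 among all symbols in the 4 samples. As a share of summed coverage Cxcl10 was at 1.06% in each WT sample against 0.899% and 0.912% in cKO, without overlap. With equal total coverage its log2 fold change was -0.23 (adjusted p = 0.305 from limma), which was not called.

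Cxcl16 coverage at 4 h was 14801 and 13632 in WT against 21538 and 21831 in cKO. The groups were apart, with a ratio of means of 1.53 and a log2 fold change of 0.61 (standard error 0.11, adjusted p = 0.0737 from limma). The call ended with median-centring (0.27), quantile normalization (0.34) or total coverage made equal (0.40), where the fold stayed below 1.5. It also ended without the WT sample 2 (0.55) or without either cKO sample (0.62 and 0.60, with a wider error). Relative to Cxcl10 in the same library, Cxcl16 was 8.99% and 8.60% in WT and 13.8% and 13.3% in cKO. Cxcl16 overlaps Zmynd15 on the opposite strand, 19.0% of its 50-base stretches also belong to Zmynd15, and the library kit does not mark strand. Zmynd15 coverage was 283 and 276 in WT against 366 and 374 in cKO at 4 h.

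**Figure D3:**
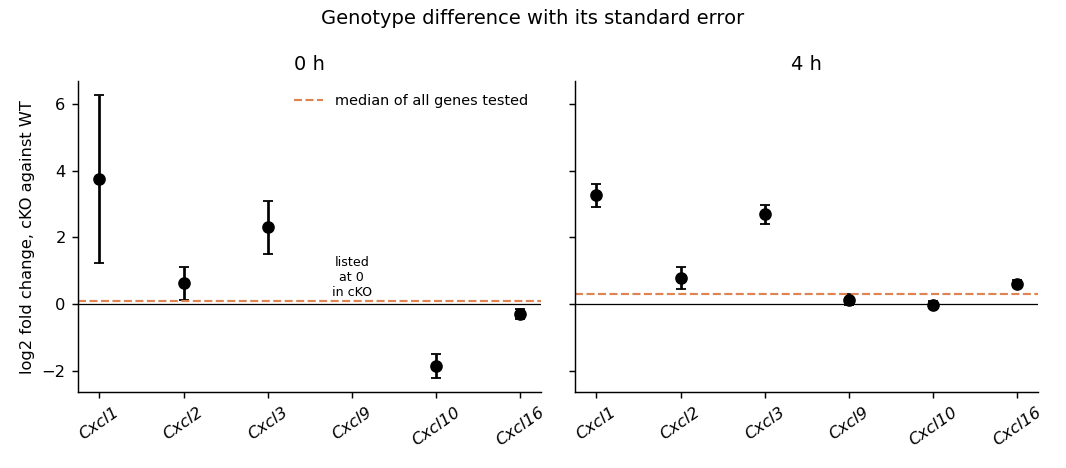
Log2 fold change, cKO over WT, at 0 h (left) and 4 h (right) on the log2(coverage + 0.1) scale for 6 CXC chemokines, with bars of 1 standard error from limma and the median of all genes tested as a dashed line. At 0 h no point is drawn for Cxcl9, which was listed at 0 in cKO. Cxcl3 at 0 h passed the coverage filter through the cKO group alone, so its point there is not a result. At 4 h Cxcl1 and Cxcl3 lie at 3.26 and 2.69, and Cxcl9 and Cxcl10 lie near 0.

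**Figure D4:**
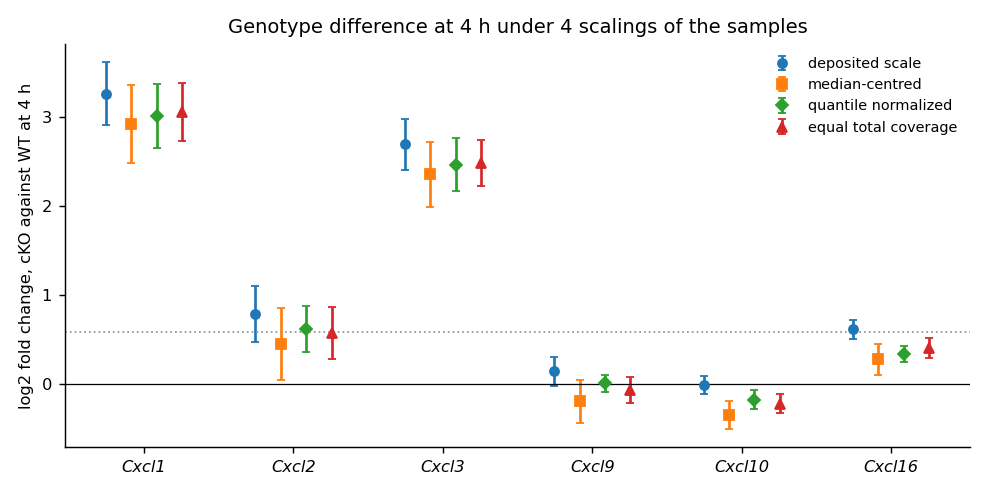
Log2 fold change, cKO over WT, at 4 h with bars of 1 standard error, on the deposited scale and under 3 other scalings of the samples, with the 1.5-fold threshold as a dotted line. Cxcl1 and Cxcl3 stay above 2.3 under each scaling shown, and Cxcl16 falls below the threshold under the 3 alternatives.

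In the same comparison without stimulation, the members other than Cxcl16 and Cxcl2 had a coverage of 33.0 or below. At 0 h Cxcl10 was called lower in Nudt21-cKO BMDMs and no member was called higher. Cxcl9 also met the calling rule, but it passed the filter on low coverage through the WT group alone and was listed at 0 in cKO, so its call is not counted as a result. Cxcl3 likewise passed the filter through the cKO group alone. Of the other 4 members 1 was lower and 0 higher, where 5.61% of the 16251 genes tested were called lower and 8.99% higher (14.6% in either direction). With adjustment over all genes 0 of the 6 passed in limma, against 1.03% of all genes. Markers of other cell types shifted at 0 h as well. The B cell markers summed to 143 and 125 in WT against 73.5 and 67.9 in cKO, with Cd79b called lower. Cd2 was called higher, as was the fibroblast marker Pdgfra, at 1.32 and 1.02 in WT against 2.75 and 2.73 in cKO, and the neutrophil marker Retnlg was called lower, at 48.3 and 45.4 against 20.8 and 28.3. Of the endothelial markers Pecam1 and Cdh5 were called lower and Kdr higher, and of the macrophage markers Adgre1 and Fcgr1 were called lower and Cd68 higher. The part of these shifts in the members' values at 0 h was not tested.

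Cxcl10 coverage at 0 h was 33.0 and 19.8 in WT against 5.88 and 8.30 in cKO. Both cKO samples lay below both WT samples, and the mean in WT was 3.72-fold that in cKO. The log2 fold change was -1.85 with a standard error of 0.37 (adjusted p = 0.148 from limma), and the call ended without either cKO sample (-1.61 and -2.10) or with unmoderated variances, which left the log2 fold change as it was. Cxcl9 was at 0.889 and 6.96 in WT and was listed at 0 in both cKO samples, so no fold is given. Its fitted difference depended on the pseudocount and is not given. Without the WT sample 2, which held the 6.96, Cxcl9 fell below the filter and was not tested. In 150-base reads, the WT values of Cxcl9 amount to about 17.1 and 134 reads, and the Cxcl10 values to 241 and 144 in WT against 42.9 and 60.5 in cKO.

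Cxcl1 at 0 h was at 7.63 and listed at 0 in WT, and at 12.8 and 10.6 in cKO, apart like those of Cxcl3 and of 36.1% of genes tested. The WT samples differed so much that the log2 fold change of 3.74 had a standard error of 2.52 (adjusted p = 0.470 from limma). It was 0.61 without the WT sample 2. Without the WT sample 1 the WT group was a listed 0 alone, so the value rests on the pseudocount and is not given. Cxcl2 was at 79.0 and 34.0 in WT against 74.2 and 85.9 in cKO, overlapping groups with a log2 fold change of 0.62 (standard error 0.50, adjusted p = 0.517 from limma). It was called, at 1.23, without the WT sample 1, and was at 0.0148, with no call, without the WT sample 2. Cxcl3 was barely covered, at 0.246 and 0.0858 in WT against 0.585 and 2.18 in cKO, or 0.581 to 14.8 reads. The cKO values were higher, but no fitted difference is given, since only the cKO group reached the filter. Without the cKO sample 4, which held the 2.18, or with a filter at a mean coverage of 1, Cxcl3 was not tested. Cxcl16 was at 6390 and 6309 in WT against 4701 and 5666 in cKO. Both cKO samples were below both WT samples, as for 20.9% of genes tested, but the log2 fold change of -0.30 (standard error 0.15, adjusted p = 0.354 from limma) did not pass.

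**Figure D5:**
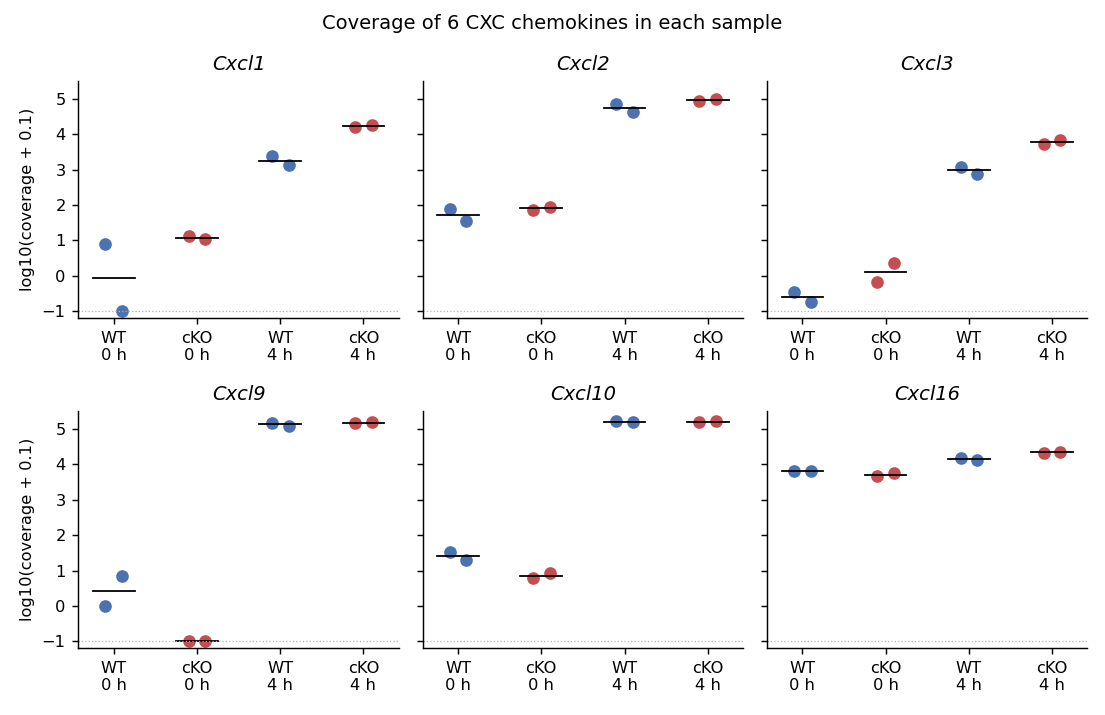
Coverage of 6 CXC chemokines in each of 8 samples, as log10(coverage + 0.1), with WT in blue, cKO in red, the mean of the log values as a line, and the value of a coverage of 0 as a dotted line. Stimulated samples lie above unstimulated ones in each panel, by the least for Cxcl16.

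Stimulation was compared within each genotype at a fold change above 1.5 with an adjusted p under 0.05. Cxcl1, Cxcl2, Cxcl10 and Cxcl16 were called higher after IFNγ/LPS in both genotypes, Cxcl9 in WT and Cxcl3 in cKO. Cxcl3 in WT and Cxcl9 in cKO met the rule too, but passed the coverage filter through their 4 h samples alone and are not counted. That leaves 5 of 5 members higher in each genotype, where 11.3% and 13.3% of genes tested were called higher and 52.3% and 51.5% lower (63.7% and 64.8% in either direction). The median gene fell, by 1.27 in WT and by 1.05 in cKO on the log2 scale, and the members rose under each scaling tried. Of the 6, 5 had a coverage of 85.9 or less at 0 h and of 770 or more at 4 h. In WT the ratio of means was 986 for Cxcl2, 6128 for Cxcl10 and 2.24 for Cxcl16. For Cxcl9 it was 34807, and the log2 fold change ranged from 14.23 without the WT sample 1 at 0 h to 17.07 without the WT sample 2. In cKO the ratio of means was 1166 for Cxcl2, 1453 for Cxcl1, 4421 for Cxcl3 and 22565 for Cxcl10, and 4.18 for Cxcl16. The log2 fold change of Cxcl3 in cKO, whose 0 h values rest on few reads, ranged from 11.38 without the cKO sample 3 at 0 h to 13.12 without the cKO sample 4. Cxcl9 in cKO went from a listed 0 to a mean of 149506, and no fold is given.

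In limma the log2 fold change of Cxcl16 was 1.16 (standard error 0.13, adjusted p = 0.00770) in WT and 2.07 (standard error 0.14, adjusted p = 0.00277) in cKO. The WT value ended just above the threshold without either WT sample at 0 h (adjusted p = 0.0516 and 0.0510). For Cxcl1, the WT group at 0 h was a listed 0 alone without the WT sample 1, so no value is given for that fit. Cxcl1 in WT rose by 10.98 on the log2 scale (standard error 2.53, adjusted p = 0.0345 from limma), with 7.84 without the WT sample 2 at 0 h, which was listed at 0. This call ended with a pseudocount of 0.01 (adjusted p = 0.0739), with unmoderated variances (0.111), and without either WT sample at 4 h (adjusted p = 0.166 and 0.143).

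Whether genotype mattered differently at 0 h and 4 h was examined with an interaction term over all 8 samples. By adjusted p 0 of the members other than Cxcl3 and Cxcl9 passed in limma, against 3.05% of 16284 genes (2.28% higher and 0.761% lower). Of these members 2 had an unadjusted p under 0.05, as did 22.1% of all genes. Cxcl16 had the smallest p, with a genotype effect higher at 4 h than at 0 h by 0.91 on the log2 scale (standard error 0.17, adjusted p = 0.0693). Cxcl10 followed at 1.84 (standard error 0.41, adjusted p = 0.0873), and with an intensity trend in the variance the adjusted p-values of these 2 were 0.0148 and 0.0229. The interaction of Cxcl9 rests on a group listed at 0, and that of Cxcl3 on a WT group at 0 h below the coverage filter, so neither is given. For Cxcl16 alone, both cKO samples were below both WT samples at 0 h and above them at 4 h, as for 6.37% of genes tested, while 2.49% moved the other way round. The adjusted p-values of Cxcl1 and Cxcl2 from limma were 0.942 and 0.915.

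The order of levels, which are per base and so comparable between genes, changed with stimulation. At 0 h Cxcl16 was the highest member in both genotypes, at 6350 ± 57.7 (SD, n = 2) in WT and 5183 ± 682 (SD, n = 2) in cKO, followed by Cxcl2 at 56.5 and 80.0. Cxcl10, Cxcl9, Cxcl1 and Cxcl3 followed in WT, and in this order the ranges of Cxcl9 and Cxcl1 overlapped, as did those of Cxcl1 and Cxcl3. In cKO the order after Cxcl2 was Cxcl1, Cxcl10, Cxcl3 and Cxcl9, with no overlap of neighbours. At 4 h the order was Cxcl10, Cxcl9, Cxcl2, Cxcl16, Cxcl1 and Cxcl3 in both genotypes, with no overlap of neighbours. Among all symbols Cxcl1 ranked 1004 and 1680 from the top in WT samples, against 165 and 137 in cKO samples.

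For each member, the genes whose centred log2(coverage + 0.1) profile over the 8 samples was closest were found among 16284 genes, as a description. For Cxcl2 the closest was Tnf, the gene of tumour necrosis factor, at a Euclidean distance of 0.93, followed by Gm14963 at 1.18 and Gbp5 at 1.26. For Cxcl16 they were Plcl1, Rab3ip and Usb1, at 0.31, 0.33 and 0.35. Cxcl3 was closest to Ifnb1, the gene of interferon beta, at 2.23, then to Il12a and Ptgs2os2. Ifnb1 coverage at 4 h was 1631 and 1403 in WT against 3852 and 4851 in cKO. Cxcl10 was closest to Gbp2b, Il27 and Mir155hg, at 2.16 to 2.32. Cxcl1 and Cxcl9 had no close match, the nearest being Tnfsf15 at 4.95 for Cxcl1 and Nos2 at 5.24 for Cxcl9, followed by F830016B08Rik and Il12a for Cxcl1 and Serpina3f and Il12b for Cxcl9. Tnfsf15 coverage at 4 h was 3613 and 2904 in WT against 7141 and 6895 in cKO. The 8 samples fall into stimulated and unstimulated groups that fix most of each profile.

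Of 8 other CXC ligands, 5 passed the coverage filter. At 4 h 0 of the 5 were called between genotypes in limma, where 25.0% of all genes tested were, and at 0 h 1 was, Cxcl14, a ligand of resting tissues, lower in cKO, where 5.61% of all genes tested were lower. Cxcl14 coverage was 2043 and 1851 in WT against 852 and 897 in cKO at 0 h, with a log2 fold change of -1.15 (standard error 0.12, adjusted p = 0.0811). With stimulation Cxcl14 and the platelet-type ligands Pf4 and Ppbp were called lower in both genotypes, Cxcl12 was called lower and Cxcl5 higher in cKO. That is 3 of 5 lower in WT and 4 of 5 in cKO, where 52.3% and 51.5% of all genes tested were called lower. At 4 h, 0 of the 5 had an unadjusted p under 0.05.

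Of 10 CXC and atypical chemokine receptors, 6 were tested at 0 h and 4 at 4 h. Cxcr3, the receptor of Cxcl9 and Cxcl10, was called higher in cKO at 0 h, at 43.2 and 45.7 against 15.6 and 20.5 in WT (log2 fold change 1.31, standard error 0.19, adjusted p = 0.111 from limma). At 4 h it was at 33.8 and 35.3 in cKO against 38.0 and 46.3 in WT, which was not called. Among the T and NK cell markers, Cd2 moved with it at 0 h, at 0.793 and 0.771 in WT against 3.57 and 4.09 in cKO, and its part in the Cxcr3 values was not tested. No other receptor was called between genotypes, so 1 of 6 was higher at 0 h, where 8.99% of all genes tested were. Cxcr4, the receptor of Cxcl12, was called lower with stimulation in both genotypes, from 1833 to 3090 at 0 h to 23.2 to 59.3 at 4 h. Of all genes tested 52.3% in WT and 51.5% in cKO were called lower. Cxcr3 was called higher with stimulation in WT alone (log2 fold change 1.23, standard error 0.23, adjusted p = 0.0213 from limma), where 11.3% of all genes were. Cxcr2 met the rule for lower in WT, but passed the coverage filter through its 0 h samples alone and is not counted. Cxcr2, the receptor of the neutrophil ligands, was at 17.6 or below in every sample, and Cxcr6, the receptor of Cxcl16, at 11.2 or below.

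Of 5 proteases that cut or shed CXC chemokines, Mmp9, a gelatinase, was called higher in cKO at 0 h, at 207 and 187 against 58.8 and 85.0 in WT, and at 4 h, at 61.8 and 53.1 against 5.16 and 15.9, which is 1 of 5 each time, where 8.99% and 20.8% of all genes tested were called higher. Mmp12, the macrophage elastase, was called lower in cKO at 0 h. Adam10, the sheddase of Cxcl16, was at 3402 and 3393 in WT against 3568 and 3725 in cKO at 0 h, with coverage at 4 h of 650 and 899 in WT against 979 and 951 in cKO. With stimulation Adam10, Mmp9 and Mmp12 were called lower in both genotypes, 3 of 5, where 52.3% and 51.5% of all genes tested were, and Dpp4, which trims Cxcl10, was called higher in both but was at 9.49 or below. Adam17 was not called in any comparison.

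Of 13 transcription regulators of CXC genes, 2 were called higher in cKO at 4 h, Irf7 and Cebpb, and 0 lower, where 20.8% of all genes tested were called higher and 4.17% lower. Irf7, an amplifier of interferon responses, was at 9105 and 8745 in WT against 17146 and 16441 in cKO. Cebpb, a partner of NF-κB at inflammatory promoters, was at 5850 and 4915 in WT against 11412 and 13751 in cKO. At 0 h 1 was called lower, Nfkbiz, which encodes the atypical inhibitor IκBζ, with 350 and 326 in WT against 191 and 213 in cKO, where 5.61% of all genes tested were called lower. With stimulation 11 of the 13 were called higher in WT and 12 in cKO, and Irf3 lower in both, where 11.3% and 13.3% of all genes tested were called higher. The median log2 fold change of the list at 4 h was 0.41, against 0.31 over all genes.

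Of 8 RNA-binding proteins that act on the decay of chemokine mRNAs, 3 were called higher in cKO at 4 h, Zfp36l2, Khsrp and Rc3h1, and 0 lower, beside 20.8% and 4.17% of all genes tested. Rc3h1, which encodes Roquin-1, was at 380 and 415 in WT against 876 and 886 in cKO, with a log2 fold change of 1.15 (standard error 0.11, adjusted p = 0.0489 from limma), and it was called higher at 0 h together with Elavl1, which encodes the stabilizing protein HuR, where 8.99% of all genes tested were called higher. Zfp36, the gene of tristetraprolin, which binds AU-rich elements, was at 597 and 634 in WT against 603 and 631 in cKO at 4 h and was not called. Zc3h12a, the gene of Regnase-1, was at 3607 and 3410 against 5103 and 5324, a log2 fold change of 0.57 (standard error 0.10, adjusted p = 0.0758 from limma) that stayed below the fold threshold. The median of this list at 4 h was 0.53, against 0.31 over all genes.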

How the data were processed

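The authors aligned paired-end reads to GRCm38 with HISAT2 2.2.1 and quantified RefSeq genes with StringTie 2.1.7, per the labels and the study's methods, and deposited 1 coverage signal per gene symbol and sample, in 1 table for each time. The unit is not named in the tables and was read from the values: of 4305 values below 1, 29.5% became whole bases (within 0.01) when multiplied by transcript length, against 2.0% at random. The tables also hold the authors' fold changes and p-values, which were not used. Columns of sample values left unused numbered 0. Without read counts no counting interval could be had. Read numbers quoted are coverage times transcript length over 150.

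Groups came from sample titles. The members and gene lists were chosen with earlier results of these data known. The genes named were the 7 members, Nudt21, the 3 nearest profiles of each member, and list genes that passed the rule of a comparison or were of note for their level, the last chosen after their values were seen. Lists covered other CXC ligands, receptors, proteases, transcription regulators, mRNA decay factors, and markers of macrophages, neutrophils, T and NK cells, B cells, fibroblasts and endothelium. Comparisons used limma 3.58.1 in R 4.3.3, two-sided, on log2(coverage + 0.1) for genes whose coverage averaged 0.5 or more over the samples of the comparison, with Benjamini-Hochberg adjustment over all genes tested. A fold change on this scale understates the change of low genes. With 2 samples against 2, an exact permutation test of 1 gene cannot give a p below 0.333. The labels do not say whether samples of a group were separate cultures, and p-values measure the spread between them. In simulated data in which 200 genes differed by 2 on the log2 scale, 81.5% were called at 4 h over 14100 genes (34% with adjusted p) and 75.5% at 0 h over 15301 genes (0% with adjusted p). Alternatives covered the pseudocount, filter, scaling, variance estimate, samples in the fit, replicate block and threshold. Protein sequences and promoters of Cxcl11 and Cxcl16 were not used here.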

Additional observations from a re-analysis of the deposited data

Results flagged for a closer look

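Cxcl16 was picked out because both cKO samples lay below both WT samples at 0 h and above both at 4 h, a pattern of 6.37% of the 16284 genes tested. The genotype effect was higher at 4 h by 0.91 on the log2 scale, and the interaction test in limma gave an adjusted p of 0.0693. Zmynd15, which overlaps Cxcl16, had the same pattern, with coverage of 329 and 274 in WT against 165 and 226 in cKO at 0 h, then 283 and 276 against 366 and 374 at 4 h, and its part in the Cxcl16 values was not tested.

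Cxcr3 was picked out because its genotype effect differed between the times in the interaction test. The effect was lower at 4 h than at 0 h by 1.59 on the log2 scale (a difference of -1.59, standard error 0.25, adjusted p = 0.0476 from limma). Its coverage was between 15.6 and 46.3 in the 8 samples, and the 6 T and NK cell markers summed to between 0 and 12.9. Of these markers, Cd2 was at 0.793 and 0.771 in WT against 3.57 and 4.09 in cKO at 0 h, called higher with an adjusted p of 0.0443 from limma, and at 4 h it was at 1.74 and 0 in WT and listed at 0 in both cKO samples. Cd3e was listed at 0 in every sample except 1 of the cKO samples at 4 h, which was at 1.02. The part of these values in those of Cxcr3 was not tested.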

How the results depend on the processing

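For the members' log2 fold changes, 273 of 293 values under other settings kept direction and side of the threshold, and 117 of 142 with a sample left out did. With an adjusted p in place of p, the genotype calls numbered 167 at 0 h and 577 at 4 h, with 0 members lower at 0 h and 0 higher at 4 h. At 4 h Cxcl1 and Cxcl3 passed by adjusted p from limma with a pseudocount of 1 (0.03825 each). They also passed with a filter at a mean coverage of 1 (0.04621 each). At 0 h Cxcl10 passed with an intensity trend (adjusted p = 0.03753 from limma) and with all 8 samples in the fit (0.03409). At 0 h Cxcl10 kept its call with a pseudocount of 1 and lost it with unmoderated variances. The calls of Cxcl9 at 0 h, and of Cxcl3 with all 8 samples in the fit, rest on a group below the coverage filter and are not counted. At 4 h Cxcl9 reversed to -0.20 with median-centring and -0.0750 with equal total coverage. Calls at 4 h split into 1530 higher and 1476 lower with quantile normalization and 1941 and 1013 with equal total coverage. Stimulation calls, 1814 higher and 8374 lower in WT and 2160 and 8350 in cKO, became 4949 and 3107, and 5129 and 3480, with median-centring. In the interaction, Cxcl1 reversed to 1.15 (pseudocount 1), Cxcl3 to -0.17 (pseudocount 0.01) and Cxcl2 to -0.11 (median-centring). With a pseudocount of 0.01 only Cxcl9 passed the interaction, which rests on a group listed at 0 and is not counted. Cxcl10 and Cxcl16 passed it with an intensity trend, with 1282 genes in all. The cause of these changes was not tested.

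With each sample left out, genes called ranged from 2036 to 2536 at 0 h, from 2243 to 4577 at 4 h (fewest without the cKO sample 4), from 4665 to 9132 for stimulation in WT, from 8261 to 8878 in cKO and from 184 to 692 for the interaction. Members called at 0 h in these fits included Cxcl1, Cxcl3 or Cxcl9 with a group at or near 0, so counts of members are not given. Fold changes that changed sign with a sample left out ranged at 4 h from -0.01 to 0.28 for Cxcl9 (negative without the WT sample 2) and from -0.0498 to 0.0198 for Cxcl10 (positive, at 0.01 and 0.0198, without the WT sample 1 or the cKO sample 3). In the interaction they ranged from -3.62 to 2.65 for Cxcl1 (positive without the WT sample 2 at 0 h), from -0.45 to 0.77 for Cxcl2 (negative without the WT sample 1 at 0 h or 2 at 4 h, the latter -0.19) and from -0.48 to 1.26 for Cxcl3 (negative without the WT sample 1, at -0.06, or the cKO sample 3 at 0 h). A lone sample was assumed to vary like the other group.

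Samples with the same number at both times did not deviate together (correlations 0.02 in WT and 0.02 in cKO). With the replicate number as a block, 31 genes passed the interaction in place of 496, and 8796 and 9770 the stimulation tests in WT and cKO; no member's call changed. NF-κB-form, response element and GAS letters were in 4.65%, 2.98% and 7.02% of windows before the start only, with the same members matched. Coverage at 0 h limits Cxcl1, Cxcl3, Cxcl9 and Cxcl10, and 2 samples a group leave the spread poorly known.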
